A study of Mus musculus with 6 samples.

Results

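Cholesterol and fatty acid synthesis was followed through 30 genes in tumour cells from mice of the Balb/c strain that carried 2208L, known as a transplantable mammary tumour. The genes were chosen by name, as enzymes of the sterol pathway (18 genes), regulators of sterol sensing (6) and enzymes of fatty acid synthesis (6), and all 30 were found among the 54532 genes of the count table. The libraries were of 2 kinds, 3 of each. CTC libraries came from circulating tumour cells that had been grown out of the blood, and PT libraries from tumour cells enriched out of the dissociated primary tumour of matched mice, and the labels match the CTC and PT libraries of each replicate number, 1, 2 and 3. All cells were untreated, and the labels used here name no other genotype, age or agent and do not say whether animals were pooled. CTC cells were propagated and PT cells are not described as such, so propagation and site of origin cannot be told apart.

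Cells build cholesterol from acetyl-CoA through mevalonate, isoprenoid units, squalene and a series of sterol intermediates, and they build fatty acids from the same acetyl-CoA through malonyl-CoA. Most of these enzyme genes are targets of the SREBP transcription factors, encoded by Srebf1 and Srebf2, which are made as membrane-bound precursors in the endoplasmic reticulum. When sterols are scarce, the escort protein SCAP carries the precursors to the Golgi for cleavage, and when sterols are plentiful the INSIG proteins hold SCAP back. SREBP-2 acts mainly on sterol genes and SREBP-1 mainly on fatty acid genes. In the mammary gland the fatty acid branch is best known for milk fat made during lactation, and many carcinomas express FASN strongly.

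The promoter sequences of 4 members are shown because these genes had some of the largest differences described here. Hmgcs1 and Hsd17b7 were highest in CTC replicate 1, and Ebp and Srebf1 in PT replicate 1. They are RefSeq promoters of GRCm38.p6, running from 250 bases before to 50 bases after the annotated start, 5′ to 3′ on the gene's strand: chr13:119690101-119690400 on the plus strand for Hmgcs1, chr1:169969156-169969455 on the minus strand for Hsd17b7, chrX:8193463-8193762 on the minus strand for Ebp and chr11:60222532-60222831 on the minus strand for Srebf1, the first of 3 listed windows of that gene. Capitals mark the letters CCAAT, the box bound by NF-Y, and TCACNCCAC, a form of the sterol regulatory element bound by SREBP, each searched on both strands; the 2 motifs do not overlap in these windows.
Hmgcs1: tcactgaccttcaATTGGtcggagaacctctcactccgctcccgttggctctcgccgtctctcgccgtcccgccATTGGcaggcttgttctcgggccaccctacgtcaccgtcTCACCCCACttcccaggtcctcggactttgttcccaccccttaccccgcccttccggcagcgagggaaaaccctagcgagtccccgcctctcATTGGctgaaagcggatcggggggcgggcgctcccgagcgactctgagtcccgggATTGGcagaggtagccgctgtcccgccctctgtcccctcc
Hsd17b7: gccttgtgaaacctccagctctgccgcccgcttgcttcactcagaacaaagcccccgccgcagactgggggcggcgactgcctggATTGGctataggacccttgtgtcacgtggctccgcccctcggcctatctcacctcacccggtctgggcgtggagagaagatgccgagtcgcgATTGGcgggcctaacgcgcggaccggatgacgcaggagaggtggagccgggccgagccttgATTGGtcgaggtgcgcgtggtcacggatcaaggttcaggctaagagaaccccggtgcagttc
Ebp: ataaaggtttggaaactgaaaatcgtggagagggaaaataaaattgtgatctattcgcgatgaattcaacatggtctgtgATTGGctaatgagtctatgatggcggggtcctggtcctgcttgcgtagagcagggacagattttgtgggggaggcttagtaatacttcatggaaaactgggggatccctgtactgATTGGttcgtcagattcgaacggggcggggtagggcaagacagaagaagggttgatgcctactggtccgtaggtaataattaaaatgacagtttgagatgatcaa
Srebf1: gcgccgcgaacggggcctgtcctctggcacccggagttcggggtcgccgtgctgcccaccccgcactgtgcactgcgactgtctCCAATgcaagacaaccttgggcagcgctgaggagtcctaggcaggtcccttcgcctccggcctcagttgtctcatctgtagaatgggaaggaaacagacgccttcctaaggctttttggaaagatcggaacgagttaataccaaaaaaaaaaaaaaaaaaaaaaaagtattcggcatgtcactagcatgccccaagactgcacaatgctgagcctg
Of the 30 members, 24 had a promoter in the table, and Fdps, Fdft1, Sqle, Stard4, Scd1 and Scd2 had none. CCAAT was present in 20 of the 24 (83.3%), against 41.1% of all 27025 genes with a promoter and 37.4% of the 32851 windows. TCACNCCAC was present in 1 of the 24, Hmgcs1, against 1.44% of all genes and 1.24% of windows. The members without CCAAT were Acat2, Scap, Acaca and Elovl6. A match describes the letters only.

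Depth was similar in all libraries, at 23845953 to 27897320 counts. Levels are TMM-scaled counts relative to library size (CPM), and 3 counts, the limit that a count of 0 allows, correspond to between 0.107 and 0.129 CPM per library; this covers counting error only. The 6 epithelial marker genes summed to between 2052 and 5039.6 CPM in CTC and between 3708 and 4478 CPM in PT, lowest in CTC replicate 3, and 1 of them, Krt19, was at 0 in CTC replicate 3 and PT replicate 3. The 8 leukocyte markers summed to at most 20.4 CPM, with Ly6g, Adgre1 and C1qa at 0 in every library. Nearly all of that highest sum, in CTC replicate 2, came from Csf1r. Csf1r was at 5.57, 20.3 and 0.196 CPM in CTC replicates 1, 2 and 3 and at most 1.37 CPM in PT. The 8 fibroblast markers ranged from 9.30 to 509.8 CPM in CTC and from 28.5 to 621 CPM in PT, with Lum at 0 throughout. The 6 milk genes summed to at most 7.67 CPM, nearly all from Btn1a1, with Csn1s1, Csn2, Wap and Lalba at 0 throughout. In bulk RNA, fewer cells of a type and less RNA per cell cannot be told apart.

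The 30 genes lay on both sides of no change, and for none did the CTC to PT difference pass the test. The edgeR quasi-likelihood test called 0 of the 30 at an adjusted p under 0.05, as it called 0% of the 13874 genes tested, and all 30 genes passed the filter on low counts. With no gene of the table called, this count does not show that the members were alike in CTC and PT. At an unadjusted p under 0.05 there were 2 of 30, Ebp and Srebf1, both lower in CTC, against 6.62% of all genes. DESeq2 also called 0 of the 30 (0.631% of its genes), DESeq2 with the matched pair as a block 0 (1.87%), limma-voom 0 (0%), edgeR with the block 0 (0%) and edgeR with no filter on low counts 0 (0.728%). The smallest adjusted p among the members was 0.726 in edgeR. By fold change 12 members were higher and 18 lower in CTC. Their median log2 fold change (CTC minus PT) was -0.039, beside 0.053 over all genes tested. The members' median turned positive without CTC replicate 3 (0.20) or PT replicate 1 (0.17) and was -0.39 without CTC replicate 2. The median SD within a group, on the log2 scale, was 0.575 over the members and 0.479 over all genes tested.

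**Figure D1:**
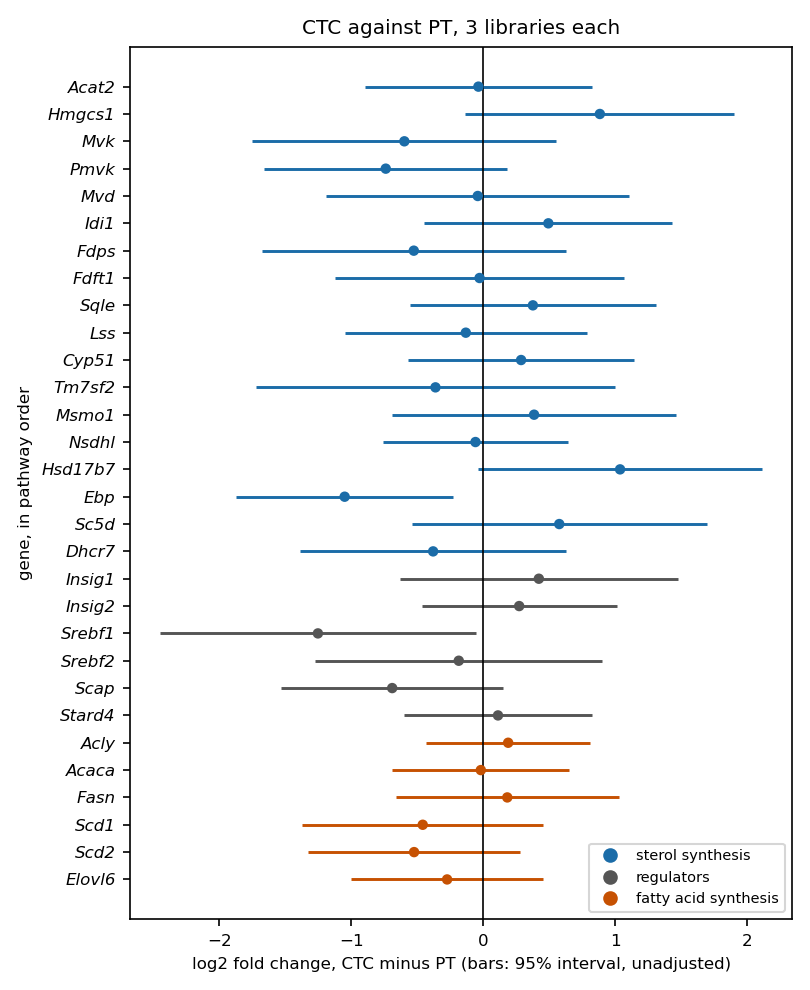
Log2 fold change of each member, CTC minus PT, with its unadjusted 95% interval from edgeR (3 libraries per group), in pathway order from top to bottom. The interval leaves out 0 for 2 of the 30 genes, Ebp and Srebf1, and the points run from -1.25 to 1.04.

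The larger pattern lay between libraries. CTC replicate 3 was below the 6-library mean for 29 of the 30 genes, Scd1 being the exception, and for all 18 sterol enzymes. It held the lowest value of 16 members (53.3%), including 12 of 18 sterol enzymes (66.7%), whereas 11.9% of all genes tested were lowest there. CTC replicate 2 held the lowest value of 0 members, against 13.8% of all genes tested, and lay above the mean for 23 of 30. Of the 13874 genes tested, 7103 lay above their own mean in CTC replicate 2 and 7305 in CTC replicate 3. On the log2 scale the members' median deviation was 0.41 in CTC replicate 2 and -0.57 in CTC replicate 3. The sterol enzymes alone had medians of 0.020, 0.499 and -0.656 in CTC replicates 1, 2 and 3, and of 0.471, 0.145 and -0.334 in PT replicates 1, 2 and 3. For these enzymes the library of pair 3 had the lowest median in each group. The fatty acid enzymes spread less, with medians of 0.043, 0.132 and -0.172 in CTC and 0.047, -0.190 and 0.255 in PT. Over all genes tested the library medians stayed between -0.031 and 0.041.

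**Figure D2:**
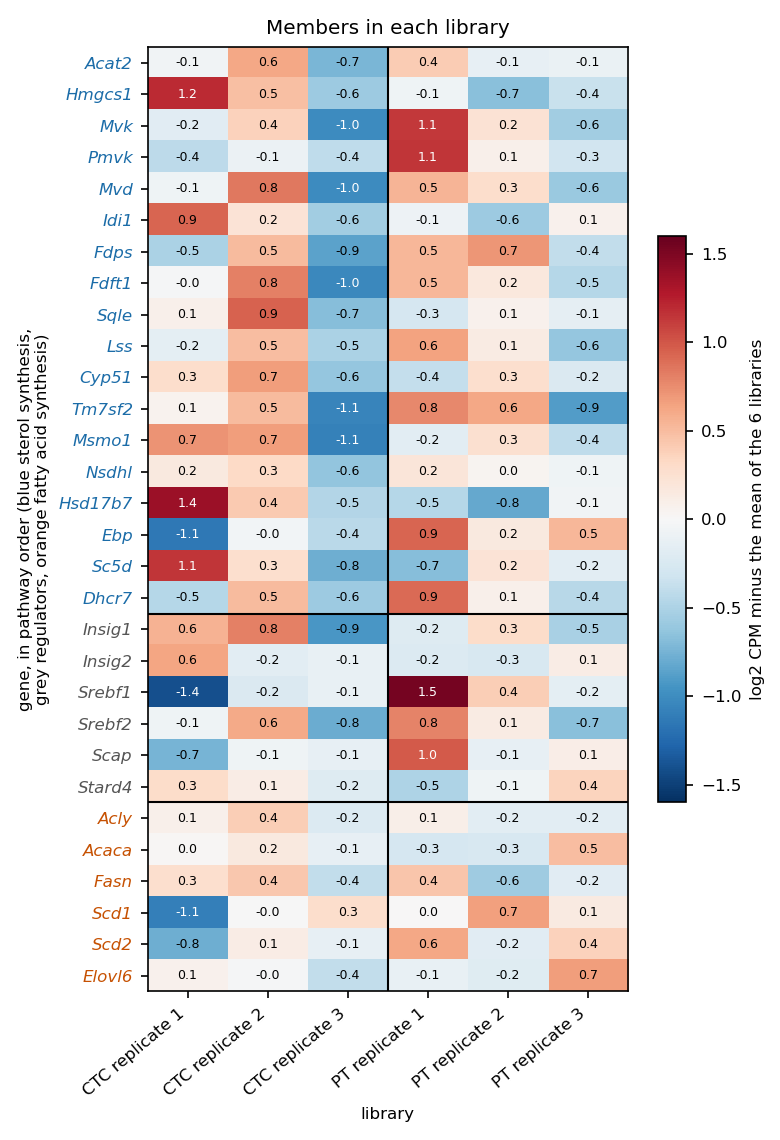
Log2 CPM of each member minus its mean over the 6 libraries, with genes in pathway order from top to bottom and libraries in columns; red is above and blue below the gene's own mean. The CTC replicate 3 column is blue for all 18 sterol enzymes (median -0.656), and CTC replicate 1 and PT replicate 1 differ in which genes are red.

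CTC replicate 3 also differed from the other libraries in some marker genes of other cell types, most of all in Fabp4. The 8 adipocyte genes summed to 350.3 CPM there and to at most 2.58 CPM in any other library. Fabp4, a fatty acid binding protein of adipocytes and other cells, gave 346.6 CPM of that sum (8861 counts). Plin1, Cidec and Cfd were also highest in CTC replicate 3, at 31, 35 and 29 counts, though Plin1 had 22 counts in PT replicate 1. Adipoq and Retn had 0 counts in CTC replicate 3, and Lep and Adrb3 had 0 in every library. Together the 8 fibroblast genes reached 509.8 CPM in the same library, against 9.30 and 109 CPM in CTC replicates 1 and 2, and PT replicate 1 was higher still. Of these, Col6a3 gave 345 CPM in CTC replicate 3, below its 545 CPM in PT replicate 1. Col3a1 reached 125 CPM in CTC replicate 3, while its next highest value was 23.4 CPM, in PT replicate 3. Pdgfra was also highest in CTC replicate 3, at 38.7 CPM. Col1a1, Col1a2, Dcn and Pdgfrb were at 0.430, 0, 0.391 and 0.821 CPM there, each higher in PT replicate 1, and Lum was at 0. The 6 proliferation genes summed to 2045 CPM there, within the range of the other CTC libraries (1958 and 2068 CPM). The part of these markers in the low sterol genes was not tested.

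The early enzymes of the mevalonate route were not all high in the same libraries. Acat2, an acetyl-CoA acetyltransferase of the first step, was highest in CTC replicate 2 and lowest in CTC replicate 3. Hmgcs1, which makes HMG-CoA in the next step (ENSMUSG00000093930, chromosome 13, 119690379 to 119708260, GRCm38), was at 137, 83.8 and 39.8 CPM in CTC replicates 1, 2 and 3 and 57.1, 37.6 and 46.7 CPM in PT replicates 1, 2 and 3. CTC replicates 1 and 2 were above every PT library and CTC replicate 3 was within the PT range. Its means were 86.9 ± 48.8 CPM (SD, n = 3) for CTC and 47.1 ± 9.75 CPM (SD, n = 3) for PT, with log2 fold change 0.88, SE 0.44, 95% interval -0.14 to 1.90, edgeR adjusted p = 0.726, and the gene was higher in CTC in pairs 1 and 2 but not 3. Without CTC replicate 1 the log2 fold change was 0.39. The 9 tested genes within 1 Mb of it had median deviations of 0.48 in CTC replicate 1 and -0.52 in PT replicate 1 on the log2 scale; the deviation of Hmgcs1 itself was 1.20 and -0.068. Such neighbour values stand beside a member as measurements, and their part in its difference was not tested.

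Pmvk, the phosphomevalonate kinase, went the other way at 41.4, 51.8 and 41.4 CPM in CTC and 122, 58.5 and 44.4 CPM in PT for replicates 1, 2 and 3, the order kept in what follows. PT replicate 1 was highest and the rest lay between 41.4 and 58.5 CPM, with PT replicate 3 inside the CTC range (log2 fold change -0.74, SE 0.40, 95% interval -1.66 to 0.18, edgeR adjusted p = 0.726). Without PT replicate 1 the log2 fold change was -0.19. Mvk and Mvd, the mevalonate kinase and the diphosphate decarboxylase on either side of it, had log2 fold changes of -0.60 (SE 0.50) and -0.042 (SE 0.50) and were lowest in CTC replicate 3. Idi1, the isomerase of the isoprenoid unit, was at 79.2, 48.4 and 28.3 CPM in CTC and 39.2, 27.9 and 43.7 CPM in PT. CTC replicates 1 and 2 were above every PT library, as for Hmgcs1, and CTC replicate 3 was below PT replicates 1 and 3 (log2 fold change 0.49, SE 0.41, 95% interval -0.45 to 1.43, edgeR adjusted p = 0.787). Without CTC replicate 1 the log2 fold change of Idi1 was 0.058. Near Idi1, the 6 tested genes within 1 Mb also deviated by 0.65 in CTC replicate 1 and -0.60 in PT replicate 1.

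Fdps, which joins the units into farnesyl diphosphate, had fewer counts than a copy of it. Its values were 184, 318 and 131 counts in CTC and 353, 356 and 170 counts in PT, together 1512. Gm3571, a processed pseudogene of Fdps on chromosome 10, had 4512 counts, and Gm5873, another on chromosome 6, had 579. Of the distinct 50-base stretches of Fdps transcripts in GENCODE M21, 26.2% also occur in transcripts of other genes. Of these 1152 shared stretches, 1030 occur in Gm43738, a gene annotated as protein-coding that had 1 count. Gm3571 holds 534 and Gm5873 holds 243, and a stretch can occur in several genes. Fdps, Gm3571 and Gm5873 had the same order in CTC, with replicate 2 highest and replicate 3 lowest. Summed, they were at 31.0, 61.4 and 20.2 CPM in CTC and 63.4, 58.6 and 29.9 CPM in PT, and the groups overlapped as they did for Fdps alone. Acat2, Fdft1 and Idi1 also shared many such stretches with other genes, at 39.1%, 26.5% and 25.3%. The part of shared sequence in the counts of these members was not tested.

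Farther on, Fdft1, Sqle and Cyp51 were highest in CTC replicate 2 and lowest in CTC replicate 3. Fdft1, the squalene synthase, had a log2 fold change of -0.028 (SE 0.47). Sqle, the squalene epoxidase and a rate-controlling oxygenase, was at 137, 247 and 80.3 CPM in CTC replicates 1, 2 and 3 and 107, 135 and 117 CPM in PT replicates 1, 2 and 3. CTC replicate 2 was above and CTC replicate 3 below all PT libraries, which lay between 107 and 135 CPM (log2 fold change 0.38, SE 0.40, 95% interval -0.56 to 1.31, edgeR adjusted p = 0.827). Cyp51, the lanosterol demethylase, was at 134, 176 and 71.6 CPM in CTC and 85.1, 133 and 94.3 CPM in PT. PT lay inside the CTC range (log2 fold change 0.29, SE 0.37, 95% interval -0.57 to 1.14, edgeR adjusted p = 0.841). The 20 tested neighbours of Cyp51 within 1 Mb had median deviations of -0.79 and -0.92 in CTC replicates 1 and 2. Cyp51 itself deviated by 0.28 and 0.67. Without CTC replicate 2 the log2 fold changes of Sqle and Cyp51 were -0.15 and -0.031. Lss, the lanosterol synthase between them, had a log2 fold change of -0.13 (SE 0.40) and was highest in PT replicate 1. Tm7sf2, a sterol reductase, and Fdps were the lowest of the 30 per length, each by its own counts. The counts of the Fdps pseudogenes are not part of that level.

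Among the sterol enzymes, the largest fold change in each direction was that of a late step, Hsd17b7 and Ebp. Msmo1, a methyl sterol oxidase, and Nsdhl, a dehydrogenase that acts with it in removing methyl groups, had log2 fold changes of 0.39 (SE 0.47) and -0.059 (SE 0.30). Hsd17b7, the ketosteroid reductase that completes that removal (ENSMUSG00000026675, chromosome 1, 169949535 to 169969241), was at 160.4, 83.6 and 45.0 CPM in CTC replicates 1, 2 and 3 and 45.4, 35.4 and 60.1 CPM in PT replicates 1, 2 and 3. CTC replicate 1 was highest, CTC replicate 2 was above all PT libraries, and CTC replicate 3 was below PT replicates 1 and 3 (log2 fold change 1.04, SE 0.46, 95% interval -0.038 to 2.11, edgeR adjusted p = 0.726). Its means were 96.3 ± 58.7 CPM (SD, n = 3) for CTC and 47.0 ± 12.4 CPM (SD, n = 3) for PT, and without CTC replicate 1 the log2 fold change was 0.46. The 14 tested neighbours within 1 Mb deviated by 0.26 in CTC replicate 1, against 1.36 for the gene.

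Ebp, the sterol isomerase of the next step (ENSMUSG00000031168, chromosome X, 8185329 to 8193512), was at 52.3, 112 and 85.6 CPM in CTC replicates 1, 2 and 3 and 222, 129 and 167 CPM in PT replicates 1, 2 and 3. All 3 CTC libraries were below all 3 PT libraries, the only member of the 30 in which the groups did not overlap; over all genes tested 6.16% had CTC below PT in this way and 5.95% above, so the members' count was no larger than the background. Its means were 83.4 ± 30.1 CPM (SD, n = 3) for CTC and 173 ± 46.5 CPM (SD, n = 3) for PT, with log2 fold change -1.05, SE 0.36, 95% interval -1.87 to -0.23, edgeR adjusted p = 0.726. It was lower in CTC in all 3 pairs, with log2 differences of -2.08, -0.20 and -0.97 in pairs 1, 2 and 3, and without pair 1 the log2 fold change was -0.57. The median of its 29 tested neighbours within 1 Mb stayed between -0.11 and 0.052 in every library. Sc5d, the sterol desaturase, was highest in CTC replicate 1 and lowest in CTC replicate 3, with a log2 fold change of 0.58 (SE 0.48), and Dhcr7, the reductase that makes cholesterol, was highest in PT replicate 1, with one of -0.38 (SE 0.43).

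**Figure D3:**
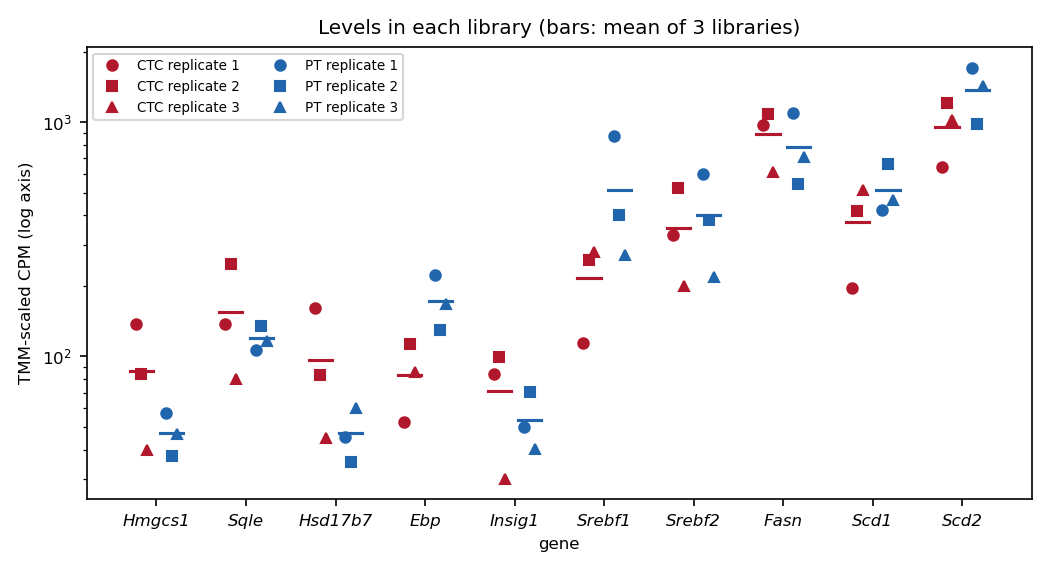
TMM-scaled CPM on a log axis of 10 members in each library, with CTC in red and PT in blue, 1 symbol per replicate number and a bar at the mean of the 3 libraries of a group. Ebp is the gene in which all CTC points lie below all PT points (52.3 to 112 against 129 to 222 CPM), and the CTC replicate 3 triangle is the lowest CTC point for Hmgcs1, Sqle, Hsd17b7, Insig1, Srebf2 and Fasn.

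Among the regulators, both SREBP genes were detected in every library, and Srebf1 had the widest range of the 30 members. Srebf1, which encodes SREBP-1 (ENSMUSG00000020538, chromosome 11, 60199089 to 60222581), was at 114, 257 and 278 CPM in CTC replicates 1, 2 and 3 and 875, 399.7 and 271 CPM in PT replicates 1, 2 and 3. PT replicate 1 was highest and CTC replicate 1 lowest, a 7.67-fold range, and CTC replicate 3 lay just above PT replicate 3. Its means were 216 ± 89.1 CPM (SD, n = 3) for CTC and 515 ± 318 CPM (SD, n = 3) for PT, with log2 fold change -1.25, SE 0.52, 95% interval -2.45 to -0.058, edgeR adjusted p = 0.726, and without PT replicate 1 the log2 fold change was -0.62. The 43 tested neighbours within 1 Mb deviated by -0.29 in CTC replicate 1 and 0.33 in PT replicate 1, and Srebf1 by -1.41 and 1.53. Srebf2, which encodes SREBP-2 (ENSMUSG00000022463, chromosome 15, 82147181 to 82205379), was at 329, 526 and 200.5 CPM in CTC and 602, 381 and 217 CPM in PT, with wide overlap (log2 fold change -0.19, SE 0.47, 95% interval -1.27 to 0.90, edgeR adjusted p = 0.925). Its sign turned without CTC replicate 3 (0.094) or PT replicate 1 (0.24). Its 36 tested neighbours within 1 Mb had median deviations of -0.0026, 0.51 and -0.30 in CTC and 0.27, 0.052 and -0.40 in PT. Srebf2 itself deviated by -0.074, 0.60 and -0.79 in CTC and 0.80, 0.14 and -0.67 in PT. Per length, Srebf1 over Srebf2 within a library was 0.442, 0.623 and 1.77 in CTC replicates 1, 2 and 3 and 1.85, 1.34 and 1.59 in PT replicates 1, 2 and 3. It was below 1 in CTC replicates 1 and 2 and above 1 in the other 4 libraries.

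Of the sensors, Insig1, itself an SREBP target that closes the feedback loop, was at 84.2, 99.8 and 30.1 CPM in CTC replicates 1, 2 and 3 and 49.8, 70.1 and 40 CPM in PT replicates 1, 2 and 3. CTC replicate 2 was highest and CTC replicate 3 lowest, with PT between them, as for Sqle (log2 fold change 0.42, SE 0.45, 95% interval -0.63 to 1.47, edgeR adjusted p = 0.827), and without CTC replicate 2 the log2 fold change was 0.085. Insig2, its relative, was at 56.7, 32.4 and 33.8 CPM in CTC and 31.4, 30.6 and 39.8 CPM in PT. CTC replicate 1 was highest, the other 5 lay between 30.6 and 39.8 CPM (log2 fold change 0.27, SE 0.32, 95% interval -0.47 to 1.01, edgeR adjusted p = 0.834), and without that library its log2 fold change was -0.036. Insig1 over Insig2 per length was 1.67, 3.46 and 1.00 in CTC replicates 1, 2 and 3 and 1.78, 2.58 and 1.13 in PT replicates 1, 2 and 3, lowest in the libraries of pair 3 in both groups. Scap, the escort, was highest in PT replicate 1 and lowest in CTC replicate 1, with a log2 fold change of -0.69 (SE 0.36). Stard4, a carrier of cholesterol between membranes, was at 57.4, 50.6 and 40.6 CPM in CTC and 33.2, 44.4 and 59.9 CPM in PT. The extremes were both PT libraries, with CTC between them (log2 fold change 0.11, SE 0.31, 95% interval -0.60 to 0.82, edgeR adjusted p = 0.931), and its sign turned without CTC replicate 1 (-0.0063) or PT replicate 1 (-0.075).

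Of the fatty acid enzymes, Acly, Acaca and Fasn had log2 fold changes within 0.19 of no change, and both Scd genes had lower CTC than PT means. Acly, which makes cytosolic acetyl-CoA from citrate, was at 397, 494 and 324 CPM in CTC replicates 1, 2 and 3 and 399.5, 333 and 333 CPM in PT replicates 1, 2 and 3, a 1.53-fold range, the narrowest of the 30. CTC replicates held both the highest and the lowest value (log2 fold change 0.19, SE 0.27, 95% interval -0.43 to 0.81, edgeR adjusted p = 0.858), and without pair 2 the log2 fold change was -0.044. Acaca, the acetyl-CoA carboxylase that commits carbon to fatty acids, was at 90.8, 99.9 and 82.3 CPM in CTC and 74.5, 75.2 and 127 CPM in PT. PT replicate 3 was highest and the CTC libraries lay between it and the other PT libraries (log2 fold change -0.018, SE 0.29, 95% interval -0.69 to 0.65, edgeR adjusted p = 0.992); the sign turned without CTC replicate 3 (0.047) or PT replicate 3 (0.28). Gm5182, a processed pseudogene of Acaca on chromosome 12, had 3522 counts beside 13812 for Acaca, 30.4% of whose 50-base stretches are shared with other genes. Fasn, the fatty acid synthase (ENSMUSG00000025153, chromosome 11, 120805846 to 120824547), was at 969, 1089 and 614 CPM in CTC and 1099, 542 and 714 CPM in PT. CTC replicates 1 and 2 and PT replicate 1 were high and the other 3 low (log2 fold change 0.18, SE 0.36, 95% interval -0.66 to 1.02, edgeR adjusted p = 0.901), and the sign turned without CTC replicate 2 (-0.0069) or PT replicate 2 (-0.044). In PT replicates 1, 2 and 3 its 64 tested neighbours within 1 Mb had median deviations of 0.51, 0.13 and -0.36. Fasn itself deviated by 0.45, -0.57 and -0.18.

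Scd1 and Scd2 are stearoyl-CoA desaturases that put the first double bond into saturated fatty acids. Both lie in the same region of chromosome 19, at 44394451 to 44407709 and 44293676 to 44306864. Scd1 was at 196, 419 and 511 CPM in CTC and 421, 662 and 464 CPM in PT. CTC replicate 1 was lowest and the rest overlapped (log2 fold change -0.46, SE 0.39, 95% interval -1.37 to 0.46, edgeR adjusted p = 0.791), and without CTC replicate 1 the log2 fold change was -0.15. Scd2 was at 646, 1204 and 1019 CPM in CTC and 1712, 980.1 and 1431 CPM in PT. CTC replicate 1 was again lowest, and CTC replicates 2 and 3 were above PT replicate 2 (log2 fold change -0.52, SE 0.35, 95% interval -1.33 to 0.28, edgeR adjusted p = 0.747), and leaving out CTC replicate 1 or PT replicate 1 gave log2 fold changes of -0.31 and -0.33. Scd1 over Scd2 per length was 0.342, 0.393 and 0.566 in CTC replicates 1, 2 and 3 and 0.277, 0.762 and 0.366 in PT replicates 1, 2 and 3, so that Scd2 led in every library. The copies share 145 stretches of 50 bases, and 4.56% of those of Scd1 occur in other genes. Elovl6, which lengthens palmitate, was at 73.2, 68.5 and 53.0 CPM in CTC and 63.9, 60.8 and 111 CPM in PT. PT replicate 3 was highest and the other 5 overlapped (log2 fold change -0.27, SE 0.31, 95% interval -1.0 to 0.45, edgeR adjusted p = 0.832), and without that library the log2 fold change was 0.056.

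Per length, as TPM from the deposited gene lengths (mean of 6 libraries), Scd2 led at 573, followed by Scd1 at 246, Fasn at 207, Acly at 195 and Srebf1 at 169.6 TPM. The ranges of Scd1 (121 to 333 TPM), Fasn (120.3 to 265 TPM) and Acly (153 to 245 TPM) overlapped, while the lowest value of Scd2 (355 TPM) was above the highest of these 3. By mean the sterol enzymes lay below these 5, from Ebp at 147 and Acat2 at 104 to Tm7sf2 at 3.57 TPM. Acaca, at 14.6 TPM, has a deposited length of 17074 bases. The 12 members outside these full accounts, Fdps among them, ranged from 3.21 to 223 CPM, with log2 fold changes between -0.69 and 0.58, and their groups overlapped in all 12.

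The matched pairs disagreed on direction. In pair 2, CTC was above PT for 24 of the 30 genes (80%; 49.6% of all genes tested), with a median log2 difference of 0.38. In pair 3, CTC was above PT for 3 of 30 (10%; 49.5% of all genes), with a median of -0.42. Those 3 were Lss, Srebf1 and Scd1. In pair 1 the genes split, 12 of 30 higher in CTC (40%; 52.6% of all genes), and the differences were widest, from -2.94 for Srebf1 to 1.82 for Hsd17b7 and Sc5d. Pmvk, Fdps, Tm7sf2 and Ebp were lower in CTC in all 3 pairs, and 0 members were higher in all 3. The share of all genes tested that kept 1 direction in all 3 pairs was not computed, so these counts have no background beside them. The median differences of the sterol enzymes were -0.51, 0.40 and -0.45 in pairs 1, 2 and 3, those of the regulators -0.056, 0.135 and -0.24, and those of the fatty acid enzymes -0.095, 0.353 and -0.354.

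**Figure D4:**
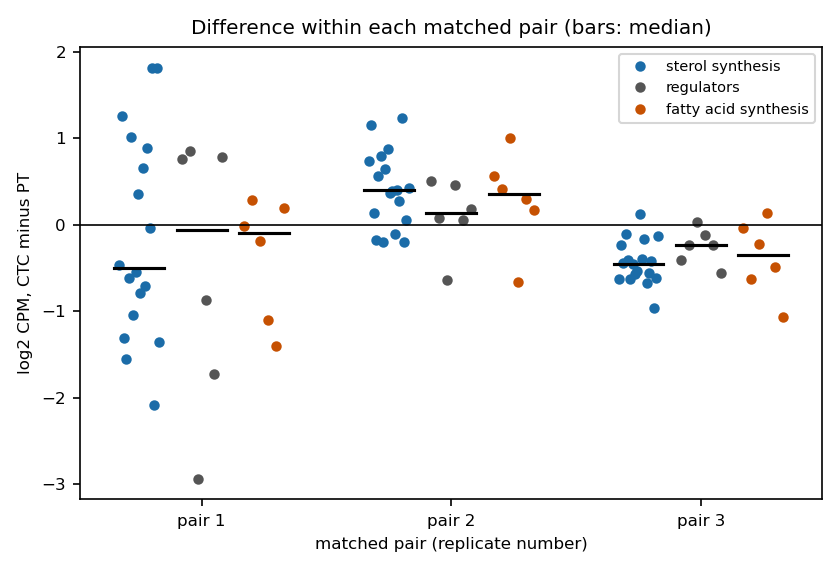
Log2 CPM of CTC minus PT in each matched pair, 1 point per member, coloured by role, with a black bar at the median of each role. Points of pair 2 lie mostly above 0 (24 of 30), those of pair 3 mostly below (27 of 30), and those of pair 1 spread from -2.94 to 1.82.

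Base composition moved with the split in pair 1. The median GC content of the members' transcripts ran from 40.8% (Idi1) to 59.8% (Srebf1). Across the 30 genes, the deviation in CTC replicate 1 had a Pearson correlation of -0.638 with GC content and that in PT replicate 1 of 0.736, while the other 4 libraries lay between -0.352 and 0.392. Across the 13862 tested genes with a GC value, the same correlations were -0.243 and 0.334. The part of base composition in these differences was not tested, and the correlations are descriptions across genes, which share libraries and are not independent replicates. Of the 15 members of lowest GC content (40.8% to 50.4%), 10 were higher in CTC and the median log2 fold change was 0.287. Of the 15 of highest (50.8% to 59.8%) 2 were higher in CTC and the median was -0.362. After each library's trend on GC content was removed, a correction added after seeing the data, the 2 medians were 0.171 and -0.136, with 9 and 4 genes higher in CTC, and 0 of 30 were called. Under that correction Hmgcs1, Hsd17b7, Ebp and Srebf1 had log2 fold changes of 0.62, 0.93, -1.16 and -0.91. CTC replicate 3 was low in both sets, with median deviations of -0.554 and -0.578 before correction.

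**Figure D5:**
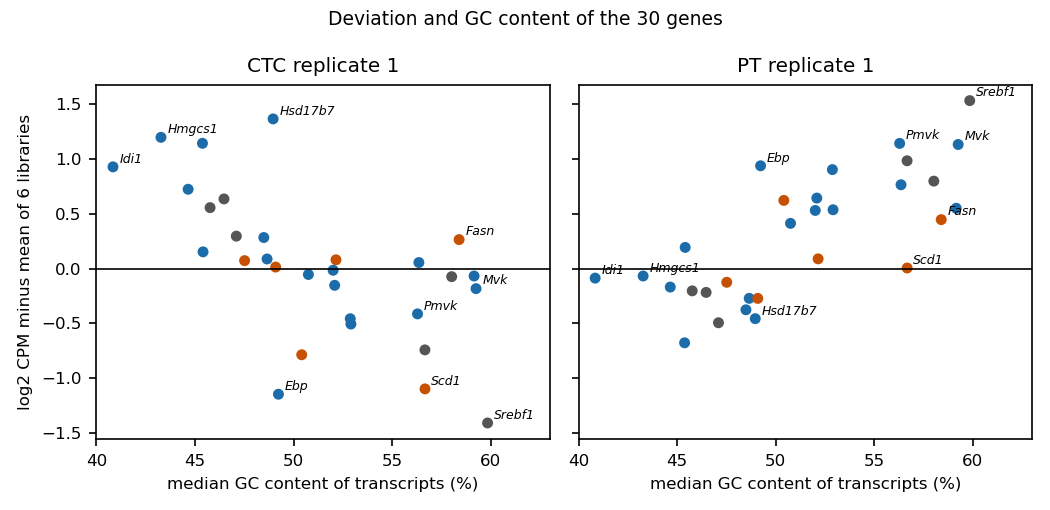
Deviation of each member from its 6-library mean (log2 CPM, vertical axis) against the median GC content of its transcripts in percent (horizontal axis), in CTC replicate 1 and PT replicate 1; blue marks sterol enzymes, grey regulators and orange fatty acid enzymes. The points slope down in CTC replicate 1 (Pearson -0.638) and up in PT replicate 1 (0.736).

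Further lipid genes, listed by textbook role, were not called either. Of 8 genes of the mevalonate and sterol branch, 8 were tested and 0 passed in either direction (6 higher, 2 lower in CTC, median log2 fold change 0.278, 0 at an unadjusted p under 0.05). Of 12 genes of sterol uptake, efflux and storage, 10 were tested and 0 passed (6 higher, 4 lower, median 0.179, 2 at an unadjusted p under 0.05). Of 16 further fatty acid genes, 14 were tested and 0 passed (4 higher, 10 lower, median -0.34, 2 at an unadjusted p under 0.05). Soat1, which esterifies cholesterol for storage, was at 59.2, 56.0 and 44.7 CPM in CTC and 25.1, 13.5 and 12.3 CPM in PT, above PT in every CTC library (log2 fold change 1.65, SE 0.36, edgeR adjusted p = 0.726). Fads1 and Fads2, desaturases of polyunsaturated fatty acids, were at 62.4, 36.8 and 93.3 CPM in CTC and 161, 130.4 and 257 CPM in PT, and at 88.1, 82.5 and 78.2 CPM in CTC and 326, 131 and 196 CPM in PT. Both were below PT in every CTC library (log2 fold change -1.51, SE 0.41, edgeR adjusted p = 0.726 for Fads1; log2 fold change -1.39, SE 0.36, edgeR adjusted p = 0.726 for Fads2). Mid1ip1, an activator of acetyl-CoA carboxylase, was at 0.142, 3.54 and 19.0 CPM in CTC and 44.2, 35.0 and 26.6 CPM in PT, again lower in each CTC library (log2 fold change -2.22, SE 1.20, edgeR adjusted p = 0.726). The groups did not overlap for 0 of the 8, 2 of the 10 and 3 of the 14 genes (0%, 20% and 21.4%). Over all genes tested this share was 12.1%, and 6.62% of all genes had an unadjusted p under 0.05. The other gene without overlap was Nr1h2, a sterol-sensing nuclear receptor, at 45.4, 79.0 and 83.0 CPM in CTC and 175, 146 and 103 CPM in PT (log2 fold change -1.03, SE 0.33, edgeR adjusted p = 0.726). Fads2 and Nr1h2 were named after their values were seen.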

How the data were processed

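RNA was sequenced from 3 CTC and 3 PT libraries, grouped by the sample labels. The authors deposited raw read counts per Ensembl gene, whole numbers that were not normalized, and a gene length for each; the submitters' processing notes name HISAT2 with builds GRCm38 and mm10. The counter, annotation and strand setting were not given in the sources used here. Overlapping and antisense genes could therefore share reads.

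From the deposited counts, all 13874 genes passing filterByExpr were fitted with edgeR 4.0.16 (R 4.3.3; TMM, glmQLFit, glmQLFTest, group only), with Benjamini-Hochberg adjustment over them and a threshold of 0.05; standard errors came from the F statistic. Deviations used log2 CPM with a prior count of 2. TPM used the deposited lengths. DESeq2 1.42.0 and limma 3.58.1 (voom) were alternatives, with others listed under sensitivity. Tested on simulated data, 3 against 3 libraries, were edgeR with and without the block, and DESeq2 and limma-voom without it. Of genes changed 2-, 4-, 8- and 16-fold, edgeR called 0%, 30%, 34% and 18.6% at the same threshold. With the block it called 0% of each. DESeq2 called 20%, 88%, 90% and 64%, and limma-voom 0%, 14%, 6% and 0%. Library pairs differed far beyond sampling noise (chi-square per degree of freedom at least 100.0), so each counted once; whether the p-values measure more than technical spread is not known beyond the labels, which call the libraries biological replicates.

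The labels match CTC and PT libraries of the same number, from matched mice, and the numbers were taken to pair the samples, though no label says that a number is 1 animal; deviations of same-numbered libraries correlated at -0.015, 0.157 and 0.298 across genes. The test did not use the pairing, and a replicate block was an alternative. Members and lists were chosen with earlier results of these data known. Library-by-library values were given for 15 members fixed as anchors of their role, members without overlap between groups and the 5 largest fold changes, 18 in all; of other lipid genes, at most 3 with a mean of at least 5 CPM and the largest fold changes. Shared sequence and GC content came from GENCODE M21 transcripts, and promoters from RefSeq (GRCm38.p6). A planned comparison of paralogue proteins was not made here. Of 30 members, 27 have the same coordinates in GENCODE M21.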

Additional observations from a re-analysis of the deposited data

How the results depend on the processing

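No member was called at an adjusted p under 0.05 in any of the 23 alternatives (0 throughout): RLE and upper-quartile scaling, DESeq2 with and without a replicate block, limma-voom, edgeR with a replicate block, no filter, 1 CPM in 3 libraries, protein-coding genes only, gene length correction with and without the block, and 9 fits leaving out a library or a pair; GC correction, also with the block or with block and gene length, was added after seeing the data. With the replicate block in edgeR, the pairing gave a smallest adjusted p of 0.766 and a median log2 fold change of -0.12, and 0 members were called; that fit called 0% of all genes, so the unchanged count is no sign of stability. The edgeR test without a filter called 0.728% of all genes.

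Leaving out a library or pair moved the median log2 fold change of all members between -0.41 and 0.20 and of sterol enzymes between -0.52 and 0.27. Of the 18 members given in full, 9 kept their sign in every alternative. Log2 fold changes that turned sign, and medians that moved, ranged as follows. Without 1 CTC library: regulators -0.26 to 0.16, Sqle -0.15 to 0.69, Cyp51 -0.0308 to 0.57, Insig2 -0.0361 to 0.40, Srebf2 -0.61 to 0.0941, Stard4 -0.0063 to 0.23, Acaca -0.10 to 0.0467, Fasn -0.0069 to 0.39. Without 1 PT library: fatty acid synthesis -0.24 to 0.0868, Srebf2 -0.48 to 0.24, Stard4 -0.0751 to 0.35, Acaca -0.16 to 0.28, Fasn -0.0444 to 0.50, Elovl6 -0.44 to 0.0564. Without 1 pair: regulators -0.30 to 0.13, fatty acid synthesis -0.28 to 0.23, Sqle -0.0628 to 0.67, Insig2 -0.0722 to 0.52, Srebf2 -0.66 to 0.30, Stard4 -0.18 to 0.47, Acly -0.0443 to 0.31, Acaca -0.23 to 0.34, Fasn -0.22 to 0.46, Elovl6 -0.49 to 0.18. Acaca was at 0.0001 in DESeq2 with the block, 0.024 in limma-voom and 0.026 in edgeR with the block. With GC correction Srebf2 was at 0.085 and Stard4 at -0.026, with the block 0.056 and -0.026, and with the block and gene length 0.0085 and -0.055; the cause was not tested. The table gives 1 length per gene, and ratios per length within a library are the same in TPM and in counts per kilobase, so no other level per length was computed. Depth set no limit here, as members had at least 82 counts per library.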

Other observations

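The ratio of 2 sterol enzymes with opposite fold changes differed between libraries. Hmgcs1 over Ebp per length, a ratio chosen after the values were seen, was 1.32, 0.375 and 0.234 in CTC replicates 1, 2 and 3 and 0.129, 0.146 and 0.14 in PT replicates 1, 2 and 3. All 3 CTC ratios were above all 3 PT ratios, which lay close together. The log2 fold changes of the 2 genes, 0.88 and -1.05, were known when the ratio was chosen. Its separation of the groups therefore follows largely from that choice. It is no contrast of early with late steps. Hsd17b7, a late step, had a log2 fold change of 1.04, and Pmvk, an early step, had one of -0.74. No test was made of a ratio chosen this way.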
